A study of Mus musculus with 6 samples.

Results

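The genes described here are the clustered histone genes of the mouse, taken as every row of the count table whose symbol begins with Hist and a cluster number from 1 to 4 followed by h. This gave 68 of the 23420 genes in the table: 6 of the H1 class, 18 of H2A, 19 of H2B (1 of them the pseudogene Hist3h2bb-ps), 12 of H3 and 13 of H4. By cluster, 54 lie in Hist1, 10 in Hist2, 3 in Hist3 and 1 in Hist4. RNA sequencing was done on the transition zone of the lens at E14.5, the band in which epithelial cells stop dividing and start to elongate into fibre cells. The 3 control libraries carried Le-Cre, a transgene that drives Cre in the surface ectoderm and the lens that forms from it. The 3 libraries labelled mutant carried Le-Cre with Etv4-/-, Etv5 fl/fl and Etv1 fl/fl, so that all 6 libraries share Le-Cre and a mixed strain background. Etv1, Etv4 and Etv5 make up the Pea3 group of ETS factors, which carry signals of fibroblast growth factors to the genome. Embryos were frozen in OCT, and nothing in the labels ties a library to an embryo of its own, so the p-values below rest on the spread among libraries, which may be technical. Bulk values cannot tell fewer cells of a type from less RNA per cell.

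Histones package DNA into nucleosomes. H2A, H2B, H3 and H4 form the core around which DNA is wound, and H1 binds the linker DNA between cores. Most genes of the clusters are transcribed in S phase, when new DNA has to be packaged. Their messages usually end just after a short stem-loop that is bound by the protein SLBP, in place of a poly(A) tail, whereas histone genes used outside S phase make polyadenylated messages. Some clustered genes can make both forms by reading past the stem-loop to a poly(A) signal. The SMART-Seq v4 kit named in the labels starts cDNA synthesis from the poly(A) tail, whereas the form of the messages behind the counts was not measured.

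The stem-loop was looked for in the mouse transcripts of GENCODE M21 (GRCm38), where all 68 genes were found by symbol. The motif searched, on the transcript strand, was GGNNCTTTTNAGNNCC, with the first 6 bases complementary to the last 6 and a loop of 4 bases between them. It was present in 44 of the 68 members and in 6 other genes, 0.0903% of all 55341 genes together with the members. No match says only that these letters are not in the annotated transcript. The 44 stem-loops came in 6 forms. The form shown first below was found in 26 members, all of H1, H2A, H2B or H3, while the H4 members had forms of their own with another stem. Hist1h1b and Hist1h2bc, on which the results also turn, had no match. The following stem-loops are shown with up to 5 bases before and 9 after. They belong to other members on which the results turn and to 1 example of each rarer form. Capitals mark the stem-loop.
Hist1h1c: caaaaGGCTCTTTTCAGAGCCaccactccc
Hist3h2a: ccaaaGGCTCTTTTCAGAGCCacccacaac
Hist3h2ba: ccaaaGGCTCTTTTCAGAGCCaccttccaa
Hist2h3c1: acaaaGGCTCTTTTCAGAGCCaccacagct
Hist1h2ae: acaaaGGCTCTTTTCAGAGCCattcactta
Hist1h2ab: acaaaGGCTCTTTTCAGAGCCacccacatc
Hist2h2ac: aaaaaGGCTCTTTTTAGAGCCaccaaatct
Hist1h3e: aaaacGGCTCTTTTAAGAGCCacctccatt
Hist1h4d: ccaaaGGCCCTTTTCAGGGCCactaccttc
Hist1h4i: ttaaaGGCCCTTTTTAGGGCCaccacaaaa
Hist1h4b: caaaaGGTCCTTTTCAGGACCactcactga

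Members whose annotated transcript runs on past the stem-loop had higher median counts. Of 22 members with 100 or more annotated bases after the stem-loop, 13 had enough counts to be tested (the edgeR rule on low counts), with a median of 168 counts over the 6 libraries. Of 22 with fewer than 100 bases after it, 4 were tested, and the median was 9.5 counts. Hist3h2a runs 1643 bases past the stem-loop, Hist1h1c 840, Hist1h4d 770 and Hist3h2ba 169, and all 4 lie among the members with the most counts. Hist1h2ab, with 11 bases after the stem-loop and 141 counts in all, and Hist2h2ac, with 57 bases and 110 counts, went the other way. A poly(A) signal (AATAAA or ATTAAA) lay within the last 40 bases of an annotated transcript of 17 members, of which 9 were tested, against 11 of the other 51. These transcript models may differ from those the authors counted on, and length and overlap with other genes move with them: the median length was 1255 bases in the first set and 483.5 in the second.

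**Figure D1:**
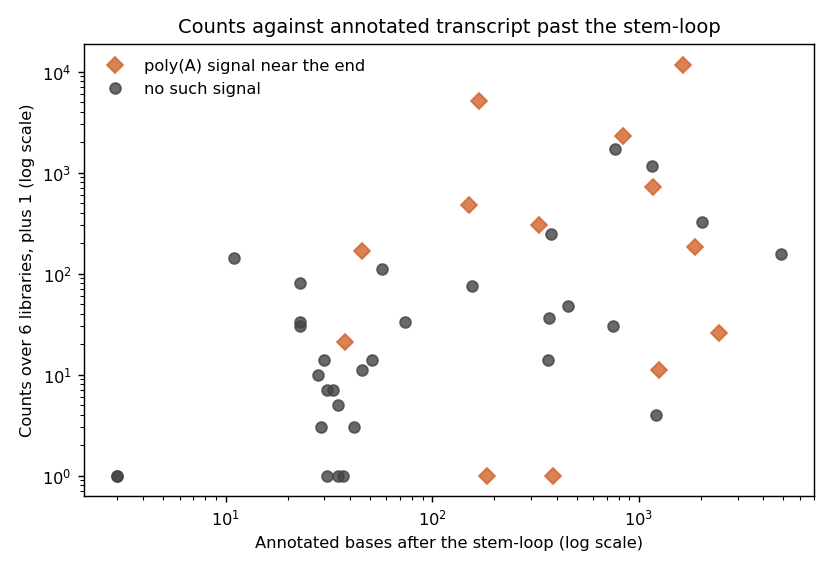
Summed counts over the 6 libraries plus 1 (y axis, log scale) against the annotated bases after the stem-loop (x axis, log scale) for the 44 members with a stem-loop; diamonds have a poly(A) signal in the last 40 bases. Hist3h2a, Hist1h1c and Hist3h2ba, among the members with most counts, have 1643, 840 and 169 annotated bases after the stem-loop, while members with few counts are found at all lengths.

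Close copies share sequence. The share of a member's 50-base windows that also occur in a transcript of another gene had a median of 51.9% over all members, 31.0% in the 20 tested members and 89.1% in the 12 members that had 0 counts in every library. Those 12 were Hist1h1t, Hist1h2aa, Hist1h2ao, Hist1h2ap, Hist2h2aa1, Hist1h2ba, Hist1h2bq, Hist1h2br, Hist1h3a, Hist1h3h, Hist1h4j and Hist1h4m. Hist1h1t, Hist1h2aa and Hist1h2ba encode histones of the testis, and Hist1h1t shared no window with another gene. How the authors treated reads that fit several genes is not given in the sources used here, so a low count of a member with many shared windows is uncertain. A count of 0 in a single library allows a level of up to 0.152 to 0.247 normalized counts per 1000000 counts (CPM), depending on the library, taking 3 counts as the limit and counting error only.

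Over all libraries, summed gene counts lay between 13364742 and 17301168. Etv1 had 607 to 1276 counts in control and 262 to 572 in mutant libraries, Etv5 2911 to 3284 and 1349 to 2290, and Etv4 35 to 58 and 45 to 97. Etv4 was not lower in the mutant libraries, and a gene-level count also takes reads from exons the alleles retain, so that these values do not settle the genotype. Xist, with 711 counts, and Ddx3y, with 2, set mutant library 1 apart from the other 5 libraries, which had 0 to 3 and 521 to 890. Crystallin genes took 21.8% to 37.6% of the counts in control and 19.5% to 32.2% in mutant libraries. Of 12 tested fibre markers, 0 had a positive and 12 a negative log2 fold change, with a median of -0.87. In edgeR 1 was called lower, and 8 had an unadjusted p under 0.05. Of all 12257 tested genes, 6099 had a negative log2 fold change. In edgeR 1.08% were called lower, and 16.2% had an unadjusted p under 0.05 in either direction. The part of the fibre marker shift in the values below was not tested. In the retina list, 3 of 7 retina markers were at 0, with a sum of at most 0.872 CPM for the list. Macrophage markers summed to 1.33 to 8.75 CPM in control and 3.30 to 28.8 CPM in mutant libraries, and red cell markers to 56.1 to 184.5 CPM and 76.7 to 313.2 CPM, with 4 of 9 red cell genes at 0 throughout.

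The clustered histone genes together gave 34858 counts, 0.0359% of all counts. Of these, 33.7% came from Hist3h2a, 22.2% from Hist1h2bc and 14.7% from Hist3h2ba, so that these 3 genes gave 70.5%. The 20 tested members held 98.3% of the counts, the 36 with some counts but too few to test had at most 47 counts over the 6 libraries, and 12 had 0. Per kilobase of the longest GENCODE transcript, the order of mean levels was Hist3h2ba (89.5 CPM per kb), Hist1h2bc (71.5), Hist3h2a (58.5), Hist1h1c (15.7), Hist1h4d (14.2) and Hist1h1b (12.7). The H2A and H2B sums were mostly those of Hist3h2a (91.1% of H2A counts) and Hist1h2bc (55.5% of H2B counts).

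None of the 20 tested members passed the test of mutant against control libraries. In edgeR's quasi-likelihood test with Benjamini-Hochberg adjustment over all 12257 tested genes, 0 members were called higher and 0 lower, against 1.14% and 1.08% of all tested genes (2.22% in either direction). At an unadjusted edgeR p under 0.05 there were 2 members, both lower and both of H3, where 16.2% of all tested genes were in either direction. DESeq2 called 0 members, where it called 6.26% of all genes with an adjusted p. In the authors' deposited table, 33 members have an adjusted p and 0 are under 0.05, with 0.177 the lowest. Of the 20 tested members, 11 had positive and 9 negative log2 fold changes, with a median of 0.09 against 0.00 over all tested genes. The groups did not overlap for 4 members, 2 higher and 2 lower in the mutant libraries, against 22.7% of all tested genes. A missed threshold does not show that expression was alike, and the standard errors below give the precision.

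**Figure D2:**
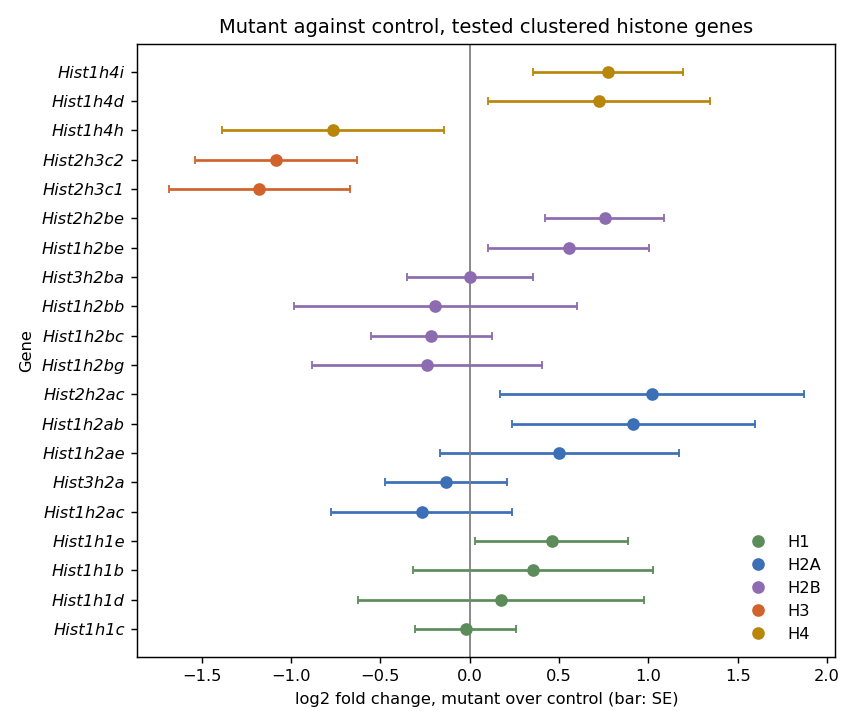
Log2 fold change of mutant over control (x axis; bars are standard errors from the edgeR fit) for the 20 tested members, coloured by class. The 2 H3 members lie lowest at -1.18 and -1.08, Hist2h2ac lies highest at 1.02, and Hist3h2a, the member with most counts, lies at -0.13.

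The 5 classes differed in how their sums stood between the groups. H1 members summed to 37.7, 53.8 and 40.4 CPM in control libraries 1, 2 and 3, whereas they summed to 44.9, 45.3 and 59.3 CPM in mutant libraries 1, 2 and 3. H2A members summed to 158.3, 161.8 and 103.3 CPM in control and 106.0, 194.7 and 97.5 CPM in mutant libraries. H2B members summed to 186.8, 154.6 and 117.7 CPM in control and 123.1, 214.2 and 94.4 CPM in mutant libraries. For H2A and H2B, mutant library 2 was the highest of all and mutant library 3 the lowest, and the groups overlapped. H3 members summed to 15.6, 17.3 and 14.52 CPM in control and 5.84, 12.9 and 5.996 CPM in mutant libraries, without overlap. The H3 sum is mostly that of Hist2h3c1 (63.2% of H3 counts) and Hist2h3c2. Each other H3 member had at most 35 counts over the 6 libraries, so the sum says little of them. H4 members summed to 9.94, 22.7 and 21.2 CPM in control and 23.2, 15.7 and 40.6 CPM in mutant libraries. The log2 ratio of the group means was 0.18 for H1, -0.09 for H2A, -0.09 for H2B, -0.94 for H3 and 0.56 for H4, and these sums are descriptions with no test. Without Hist3h2a the H2A ratio was 0.39, and with CPM from library totals the H2A and H2B ratios turned to 0.03 and 0.03. Without mutant library 2 the ratios were -0.47 for H2A, -0.49 for H2B and -1.42 for H3. The H4 ratio was 0.14 without Hist1h4d and 0.12 without mutant library 3, the H1 ratio was 0.04 without mutant library 3, and the H3 ratio was -0.58 without Hist2h3c1.

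**Figure D3:**
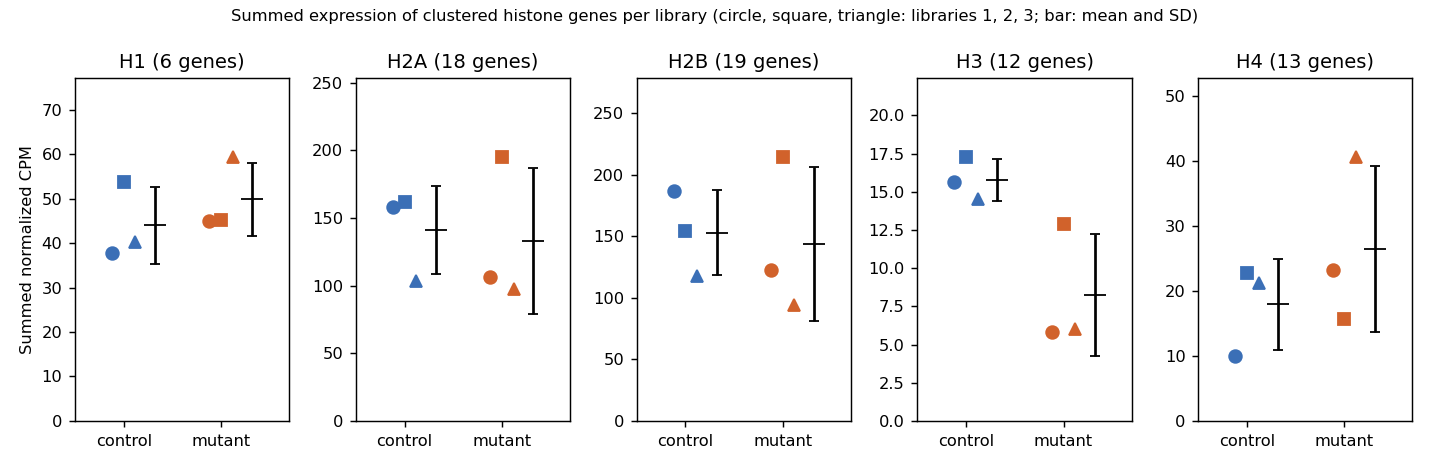
Summed normalized CPM (y axis, from 0, with its own scale in each panel) of the H1, H2A, H2B, H3 and H4 members in each control and mutant library, with the mean and SD of 3 libraries as a bar. The H3 sums of the mutant libraries (5.84, 12.9 and 5.996) lie below the lowest control at 14.52, and the groups overlap in the other 4 panels.

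Linker histone H1 members took different courses. Hist1h1c, which encodes H1.2 and is known to make tailed messages, stood at 27.5, 28.0 and 18.3 CPM in the controls 1, 2 and 3 and at 19.2, 34.2 and 19.4 CPM in the mutants 1, 2 and 3. Its log2 fold change was -0.02 ± 0.28 (SE; adjusted p = 0.978 in edgeR). Hist1h1b, which encodes H1.5, stood at 2.69, 11.4 and 10.8 CPM in control and 13.3, 3.05 and 15.3 CPM in mutant libraries. Control library 1 and mutant library 2 were thus low and the other 4 libraries high, and the log2 fold change of 0.35 ± 0.67 missed the threshold (SE; adjusted p = 0.844 in edgeR). Hist1h1e, which encodes H1.4, was at 6.65, 11.2 and 10.8 CPM in control and 10.2, 7.01 and 22.1 CPM in mutant libraries, with the same 2 libraries low and a log2 fold change of 0.46 ± 0.43 (SE). Hist1h1d, which encodes H1.3, stayed at 2.98 CPM or less in every library, with a log2 fold change of 0.17 ± 0.80 (SE). The signs of all 4 turned when single libraries were left out. Hist1h1a had 20 counts in all and was not tested.

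Among H2A members, Hist3h2a stood far above the rest. It was at 150.2, 151.8 and 92.0 CPM in control and 93.3, 186.4 and 80.1 CPM in mutant libraries, with mutant library 2 highest and a log2 fold change of -0.13 ± 0.34 (SE; adjusted p = 0.891 in edgeR). Hist1h2ae was at 1.27, 4.68 and 5.32 CPM in control and 5.33, 1.73 and 8.89 CPM in mutant libraries, low in control library 1 and mutant library 2. Hist1h2ab and Hist2h2ac were low in the same 2 libraries. Hist1h2ab was at 0.299, 1.46 and 1.05 CPM in control and 1.68, 0.990 and 2.67 CPM in mutant libraries, a log2 fold change of 0.92 ± 0.68 (SE). Hist2h2ac was at 0.149, 0.547 and 1.33 CPM and at 1.27, 0.495 and 2.40 CPM, a log2 fold change of 1.02 ± 0.85 (SE). Hist1h2ac went the other way, highest in control library 1 (6.13 CPM, against 2.85 and 2.49) and in mutant library 2 (4.54 CPM, against 3.20 and 1.799). The sign of Hist3h2a, Hist1h2ae and Hist1h2ac turned in fits that left out single libraries. These genes encode nearly the same H2A protein, and the remaining 13 H2A members had at most 29 counts each.

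Of the H2B members, Hist1h2bc and Hist3h2ba carried most counts and followed Hist3h2a. Hist1h2bc was at 113.5, 92.5 and 60.2 CPM in control and 67.9, 113.1 and 48.6 CPM in mutant libraries (log2 fold change -0.22 ± 0.34, SE; adjusted p = 0.806 in edgeR). Hist3h2ba was at 65.2, 52.2 and 47.3 CPM in control and 43.7, 89.1 and 32.5 CPM in mutant libraries (log2 fold change 0.00 ± 0.35, SE; adjusted p = 0.9997 in edgeR). The sign of both turned when single libraries were left out. In both, control library 1 was the highest of the controls and mutant library 2 the highest of the mutants. Hist2h2be, a gene known for tailed messages in cells that do not divide, was at 3.66, 3.58 and 5.32 CPM in control and 6.75, 5.36 and 9.10 CPM in mutant libraries, where the lowest mutant value lay just above the highest control. The log2 fold change, 0.75 ± 0.33, missed the threshold (SE; adjusted p = 0.311 in edgeR). Hist1h2be was at 1.39 to 1.64 CPM in control and 1.93 to 2.89 CPM in mutant libraries, again without overlap (log2 fold change 0.55 ± 0.45, SE). Over all tested genes, 11.4% were higher in the mutant libraries without overlap. The other tested H2B members, Hist1h2bb and Hist1h2bg, chosen for mention once their values were known, had changes on the log2 scale of -0.19 ± 0.79 and -0.24 ± 0.64 (SE).

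Both tested H3 members were lower in the mutant libraries without overlap. Hist2h3c1 was at 10.4, 11.4 and 10.1 CPM in control and 2.69, 9.24 and 2.40 CPM in mutant libraries, so that mutant library 2 lay near the controls and the other 2 mutant libraries far below. Its log2 fold change was -1.18 ± 0.51 (SE; adjusted p = 0.301 in edgeR). Without mutant library 2 Hist2h3c1 passed, at a log2 fold change of -2.06 (edgeR adjusted p = 0.0105). Hist2h3c2, which encodes the same histone and shares 63.5% of its windows with other genes, was at 4.11, 4.01 and 2.33 CPM in control and 1.68, 2.06 and 1.20 CPM in mutant libraries. The log2 fold change, -1.08 ± 0.45, missed the threshold (SE; adjusted p = 0.286 in edgeR). Over all tested genes, 11.3% were lower without overlap and 8.27% were lower at an unadjusted p under 0.05. Every window of Hist2h3c1 occurs, on either strand, in a transcript of another gene, so its counts may be split with other genes. The longest transcript of Hist2h3c1 has 1825 bases and that of Hist2h3c2 1020, so Hist2h3c2 cannot hold all of these windows. Which genes share them was not recorded, so summing the H3 class as above may not remove the split. Hist2h2bb, an H2B gene of the same cluster named after its values were seen, had 4, 20 and 12 counts in control and 3, 2 and 2 counts in mutant libraries, too few to test. Macrophage markers stood at 25.7, 3.30 and 28.8 CPM in mutant libraries 1, 2 and 3, low where Hist2h3c1 was high. In control libraries 1, 2 and 3 they stood at 8.75, 3.04 and 1.33 CPM, while Hist2h3c1 varied little. Crystallin genes also set mutant library 2 apart, with 32.2% of its counts against 21.7% and 19.5% in mutant libraries 1 and 3. The part of macrophages or of the crystallin share in the Hist2h3c1 values was not tested. Of the Hist1 cluster H3 genes, Hist1h3e had 11 counts in control and 24 in mutant libraries and Hist1h3d 15 and 14, with neither tested.

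H4 members were led by Hist1h4d, which gave 74.3% of the H4 counts. It was at 3.74, 15.3 and 17.5 CPM in control and 17.9, 8.99 and 33.5 CPM in mutant libraries, lowest in control library 1 and mutant library 2 within their groups and highest in mutant library 3. The log2 fold change, 0.72 ± 0.62, missed the threshold (SE; adjusted p = 0.612 in edgeR). Hist1h4i was at 2.32, 2.85 and 1.61 CPM in control and 2.79, 3.96 and 4.85 CPM in mutant libraries, with only a small overlap and a log2 fold change of 0.77 ± 0.42 (SE; adjusted p = 0.409 in edgeR). Hist1h4h was at 3.14, 2.67 and 0.887 CPM in control and 1.37, 1.81 and 0.763 CPM in mutant libraries, a log2 fold change of -0.76 ± 0.62 (SE; adjusted p = 0.584 in edgeR). Hist1h4c had 28 counts in control and 19 in mutant libraries, and Hist4h4, the single gene of its cluster, had 25 counts in all. All these genes encode the same H4 protein, so their messages differ mainly outside the coding part.

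**Figure D4:**
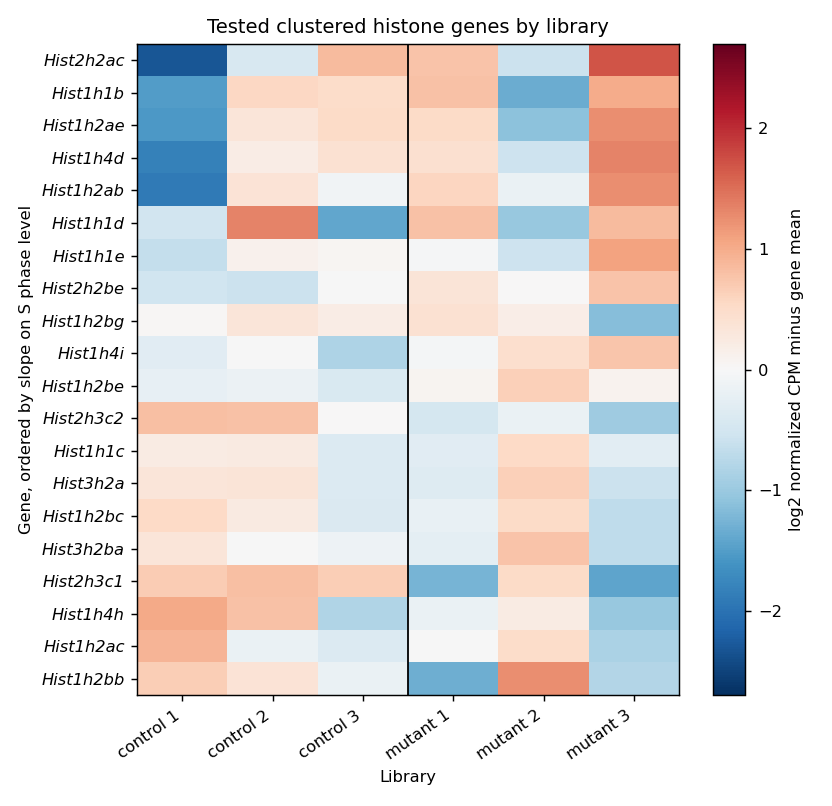
Log2 normalized CPM minus the gene's mean over the 6 libraries (colour) for the 20 tested members (rows, ordered by their slope on the S phase level) in each library (columns, controls left of the line). The upper rows are low in control library 1 and mutant library 2, and several of the lower rows, among them Hist3h2ba and Hist1h2bc, are high in the same 2 libraries.

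The S phase level was set beside these values, as the median log2 CPM of 47 replication genes in each library. Control libraries 1, 2 and 3 had levels of 4.13, 5.22 and 5.22, and mutant libraries 1, 2 and 3 had levels of 5.999, 5.26 and 5.97, so that control library 1 was lowest and mutant library 2 was at the level of the other controls. The sum over all clustered histone genes did not follow it, with 408.4, 410.1 and 297.0 CPM in control and 302.9, 482.7 and 297.7 CPM in mutant libraries. That sum is mostly Hist3h2a, Hist1h2bc and Hist3h2ba. Within groups, 6 of the 20 tested members were lowest in both control library 1 and mutant library 2 (Hist1h1b, Hist1h1e, Hist1h2ab, Hist1h2ae, Hist2h2ac and Hist1h4d), where 21.8% of all tested genes were. Another 6 were highest in both libraries (Hist1h2ac, Hist1h2bb, Hist1h2bc, Hist3h2ba, Hist2h3c2 and Hist1h4h), where 21.5% of all tested genes were. The share of crystallin counts was also highest in these libraries within each group, at 37.6% in control library 1 and 32.2% in mutant library 2, and lens epithelium markers were lowest. Those 6 markers are of the dividing cells at the front of the lens. They summed to 369.1, 772.1 and 1020.5 CPM in control and 765.9, 464.9 and 755.0 CPM in mutant libraries. Of them, 5 had a positive slope on the S phase level past the threshold of the fit described next. Over all tested genes, 4.57% did. Of 12 tested fibre markers, 5 had a negative slope past that threshold, against 2.81% of all tested genes. The part of cell makeup in the histone values was not tested.

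A fit with group and S phase level, chosen after seeing the data, gave each gene a slope on that level within groups. Control libraries 2 and 3 had the same level, 5.22, and mutant libraries 1 and 3 nearly the same, 5.999 and 5.97. The slope was thus mainly a contrast of control library 1 and mutant library 2 with the other libraries of their groups. On simulated counts the share of false calls was above the threshold. Of the 20 tested members, 3 had a positive slope past the threshold and 0 a negative one, against 4.57% and 2.81% of all tested genes (7.38% in either direction); at an unadjusted edgeR p under 0.05 there were 6 and 3 members, where 21.9% of all tested genes were in either direction. Hist1h1b rose by 2.23 ± 0.35 log2 units per unit of the S phase level (SE; adjusted p = 0.0045 in edgeR), and Hist1h4d by 1.99 ± 0.33 (SE; adjusted p = 0.00546 in edgeR). Both calls held when any single library was left out, with slopes from 1.87 to 3.05 and from 1.78 to 2.15. Hist1h2ae had a slope of 2.11 ± 0.47 (SE; adjusted p = 0.0208 in edgeR), which no longer passed without control library 1, control library 3, mutant library 1 or mutant library 2, where the highest adjusted p was 0.0826. Hist2h2ac, Hist1h2ab and Hist1h1e had slopes of 2.45 ± 0.94, 1.74 ± 0.75 and 0.94 ± 0.38 without passing (SE). The abundant members had negative slopes that did not pass: -0.77 ± 0.24 for Hist1h2bc, -0.79 ± 0.26 for Hist3h2ba, -0.69 ± 0.31 for Hist3h2a and -0.53 ± 0.25 for Hist1h1c (SE; lowest edgeR adjusted p = 0.0893). Hist3h2ba, Hist3h2a and Hist2h3c1 were called negative without control library 1, at -1.66, -1.51 and -2.54, and Hist3h2a and Hist1h2bc without control library 2, at -0.98 and -1.01.

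**Figure D5:**
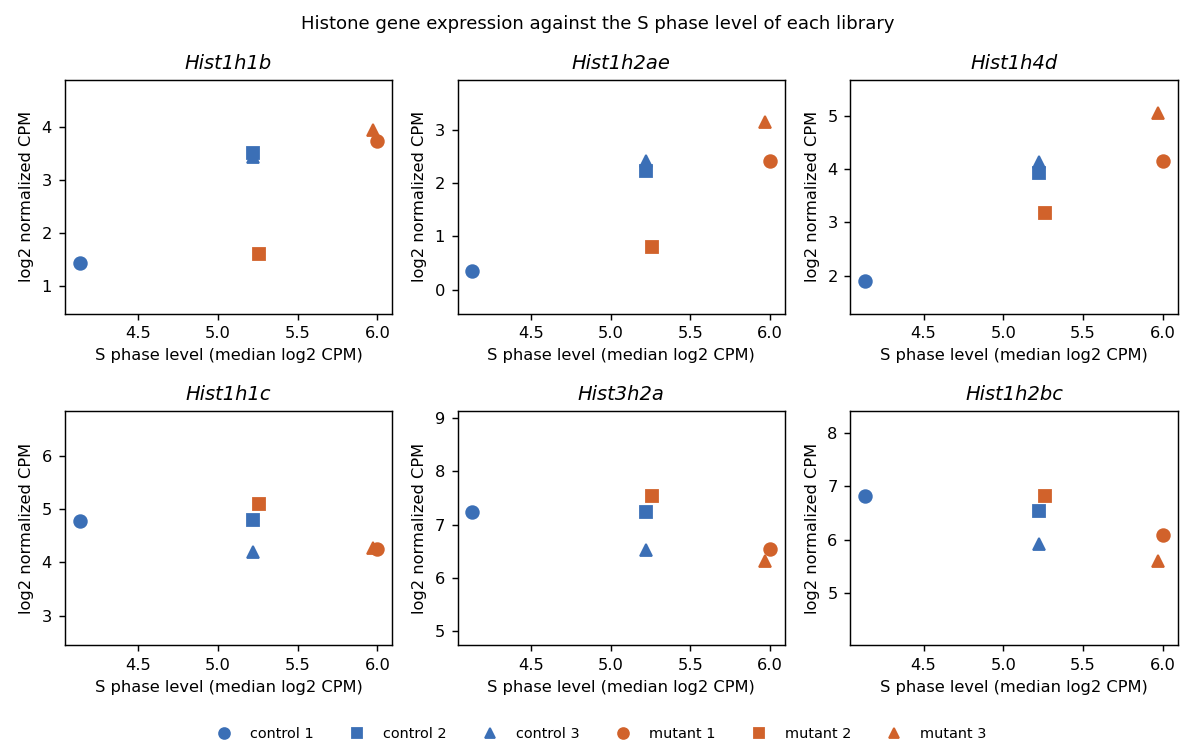
Log2 normalized CPM of 6 members (y axes, each spanning the same number of log2 units) against the S phase level of the library (x axes, median log2 CPM of 47 replication genes); colours are groups and shapes are libraries. Hist1h1b, Hist1h2ae and Hist1h4d in the upper row are lowest within each group in the library of lowest level. The other libraries of each group have nearly the same level, so no graded rise is shown. Mutant library 2 lies below control libraries 2 and 3 although its level of 5.26 is close to their 5.22.

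Control libraries 2 and 3 and mutant library 2 had nearly the same S phase level, and members differed between them in both directions, as a description of single libraries with no test. Hist1h1b was at 3.05 CPM in mutant library 2 against 11.4 and 10.8 CPM, and Hist1h2ae at 1.73 CPM against 4.68 and 5.32 CPM. Hist1h4i, also of the Hist1 cluster, was at 3.96 CPM against 2.85 and 1.61 CPM. Hist1h4i and Hist1h2ae had a stem-loop match, and Hist1h1b had none. In the fit with the S phase level, the group term of Hist1h1b was a log2 fold change of -1.58 ± 0.40 (SE; adjusted p = 0.0515 in edgeR), while those of Hist1h2ae and Hist1h4d were -1.30 ± 0.53 and -0.89 ± 0.37 (SE; adjusted p = 0.256 for both in edgeR). No member was called by the group term of that fit. With 3 libraries a group, level and group are only partly separable.

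The promoters of members with called slopes are shown with that of Hist3h2a, the most abundant member by counts, for comparison. They are 300 bases from RefSeq (GRCm38.p6), from 250 before to 50 after the annotated start, at chr13:21780576-21780875 (minus strand) for Hist1h1b, chr13:23571171-23571470 (minus strand) for Hist1h2ae, chr13:23581318-23581617 (plus strand) for Hist1h4d and chr11:58954435-58954734 (plus strand) for Hist3h2a. Capitals mark CCAAT, which is the core of the site bound by the factor NF-Y. They also mark TATAAA, the core of a promoter box that general factors bind near the start, wherever these letters lie in the window. Lastly they mark ATTTGCAT, the octamer bound by Oct factors, with each motif taken on either strand.
Hist1h1b: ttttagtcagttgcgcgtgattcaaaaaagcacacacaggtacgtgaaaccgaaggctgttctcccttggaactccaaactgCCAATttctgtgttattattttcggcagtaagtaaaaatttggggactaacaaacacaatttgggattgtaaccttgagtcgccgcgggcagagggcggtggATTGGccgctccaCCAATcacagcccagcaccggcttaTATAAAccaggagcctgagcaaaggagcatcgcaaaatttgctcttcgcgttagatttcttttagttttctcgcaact
Hist1h2ae: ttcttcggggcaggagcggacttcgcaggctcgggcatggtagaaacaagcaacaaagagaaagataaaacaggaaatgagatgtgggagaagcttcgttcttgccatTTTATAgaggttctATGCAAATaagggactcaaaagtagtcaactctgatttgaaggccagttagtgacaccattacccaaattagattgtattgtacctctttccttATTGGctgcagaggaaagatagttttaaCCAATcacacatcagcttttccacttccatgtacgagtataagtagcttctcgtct
Hist1h4d: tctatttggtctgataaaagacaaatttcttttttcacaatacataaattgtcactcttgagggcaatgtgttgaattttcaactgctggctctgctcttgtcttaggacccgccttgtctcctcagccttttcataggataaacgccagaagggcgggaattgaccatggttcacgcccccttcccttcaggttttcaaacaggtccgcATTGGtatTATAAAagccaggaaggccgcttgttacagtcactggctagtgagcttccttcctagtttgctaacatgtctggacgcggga
Hist3h2a: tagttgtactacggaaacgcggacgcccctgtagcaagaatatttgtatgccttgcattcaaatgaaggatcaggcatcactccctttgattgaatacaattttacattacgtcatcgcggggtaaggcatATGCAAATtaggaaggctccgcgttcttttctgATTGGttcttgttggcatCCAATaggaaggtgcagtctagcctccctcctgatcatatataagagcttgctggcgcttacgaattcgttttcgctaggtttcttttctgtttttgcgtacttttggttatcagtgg

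A CCAAT or ATTGG match was found in 52 of the 61 member promoters that could be matched to RefSeq, or 85.2%, against 37.9% of 27025 promoters of the same length. It was present in every matched promoter of H1, H2A, H2B and H3 genes (6, 17, 16 and 10 promoters) and in 3 of 12 H4 promoters. TATAAA or TTTATA was found in 35 member promoters (57.4%, against 14.2% of all). ATTTGCAT or ATGCAAAT was found in 13 (21.3%, against 1.75%), 7 of them H2A and 6 H2B genes. Windows of some H2A and H2B genes on opposite strands overlap, as for Hist1h2ae and Hist1h2bg. A site there can count for both genes, so the 61 promoters are not all separate sequences. In Hist1h1b the TATAAA began 28 bases before the annotated start and the nearest CCAAT matches 53 and 66 bases before it. In Hist1h4d the 2 motifs began 32 and 40 bases before its start. The only TATAAA match of Hist1h2ae lay on the other strand, 142 bases before its start. That site is also the match 43 bases before the start of Hist1h2bg. Hist3h2a had CCAAT and octamer matches and no exact TATAAA in this window. The windows of Hist3h2a and Hist1h2ae both hold TATAAG, which differs in the last letter and was not searched. Hist1h2ae and Hist3h2a both had the octamer, and that of Hist1h2ae was also counted for Hist1h2bg. A match is a description of letters, and these motifs were not tied to the slopes by any test.

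By the sign of the log2 fold change, 10 of 14 histone processing genes and 19 of 22 histone chaperone genes were higher in the mutant libraries. Of all 12257 tested genes, 6158 were. Most genes of the 2 lists did not pass. Slbp encodes the protein that binds the stem-loop. It stood at 32.4, 55.0 and 50.1 CPM in control and 98.3, 52.7 and 76.5 CPM in mutant libraries, with mutant library 2 among the controls (log2 fold change 0.73 ± 0.27, SE; adjusted p = 0.238 in edgeR). Its slope on the S phase level was 0.76 ± 0.17 and passed (SE; adjusted p = 0.0224 in edgeR), although not without control library 1, mutant library 1 or mutant library 2 (highest adjusted p = 0.113 in edgeR). Npat, which encodes a coactivator of histone genes, had a log2 fold change of -0.19 ± 0.19 (SE). Of 14 tested genes for processing the ends of histone messages, 0 passed in edgeR and 0 in DESeq2. An unadjusted edgeR p under 0.05 was found for 2 of them, against 16.2% of all tested genes. The median log2 fold change of the 14 genes was 0.11. Ncbp2 and Cpsf2, of the cap-binding and cleavage complexes, had log2 fold changes of 0.32 ± 0.14 and 0.28 ± 0.15 (SE).

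Of 22 tested histone chaperone genes, 1 rose, 0 fell and 21 did not pass, with a median log2 fold change of 0.42. Over all tested genes 1.14% were called higher. DESeq2 called 5 of the list, where it called 6.26% of all genes. The gene that rose was Hat1, which encodes the enzyme that acetylates newly made H4. The mean level of Hat1 was 75.0 CPM ± 10.7 in the 3 control and 136.2 CPM ± 19.9 in the 3 mutant libraries (SD), a log2 fold change of 0.86 ± 0.16 (SE; adjusted p = 0.0353 in edgeR). Hat1 no longer passed without any single library other than mutant library 2, nor with the replicate block, at log2 fold changes from 0.75 to 0.97 over the leave-out fits. Rbbp7 and Supt16, which encode a histone-binding partner of Hat1 and a subunit of the FACT chaperone, stood at 0.57 ± 0.13 and 0.52 ± 0.12 on the log2 scale, short of the threshold in edgeR (SE; adjusted p = 0.0659 and 0.0692 in edgeR), and both passed in DESeq2. Rbbp7 also passed in edgeR without mutant library 2.

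Histone genes outside the clusters, most of which make tailed messages outside S phase, had 10 positive log2 fold changes among 11 tested genes. Of all 12257 tested genes, 6158 were positive. Neither edgeR nor DESeq2 called any of the genes outside the clusters (0 and 0). An unadjusted edgeR p under 0.05 was found for 2 of them, against 16.2% of all tested genes. H2afy, which encodes macroH2A, had a log2 fold change of 0.38 ± 0.12, H2afx, the variant phosphorylated at DNA breaks, one of 0.59 ± 0.20, and H2afj one of 0.34 ± 0.15 (SE), each without overlap between the groups, as for 11.4% of all tested genes in this direction. The list had a median log2 fold change of 0.38, and 4 of its genes had positive slopes on the S phase level past the threshold, against 4.57% of all tested genes.

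Of the 47 replication genes, 1 rose in edgeR (Mcm2, log2 fold change 1.10 ± 0.17, SE; edgeR adjusted p = 0.0155), and 46 did not pass, against 1.14% of all tested genes called higher. DESeq2 called 11, against 6.26% of all genes. An unadjusted edgeR p under 0.05 was found for 28, against 16.2% of all tested genes. The median of the list was 0.997 on the log2 scale. Mcm2 no longer passed without control library 2, mutant library 1 or mutant library 3, nor with the replicate block. The values of E2f1, whose product turns on genes for S phase, and of Rpa2, of the single-strand binding complex, were 1.11 ± 0.25 and 0.98 ± 0.26 on the log2 scale (SE) and missed the threshold in edgeR. Of 20 genes of G2 and M phase, 0 passed in edgeR and 0 in DESeq2. An unadjusted edgeR p under 0.05 was found for 1 of them, against 16.2% of all tested genes. All 20 had a positive log2 fold change, with a median of 0.71, where 6158 of all 12257 tested genes were positive. A positive slope on the S phase level passed for 19, against 4.57% of all tested genes. Ccnb2, Aurka and Plk1 had log2 fold changes of 0.95 ± 0.35, 0.96 ± 0.43 and 0.69 ± 0.34 (SE). The median of the clustered histone members, 0.09, thus lay below those of the replication and the G2 and M phase lists. It was near the 0.11 of the processing genes. The members pooled in it include some lowest and some highest in both control library 1 and mutant library 2 within groups. The difference between lists was not tested.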

How the data were processed

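RNA sequencing counts of 6 mouse lens libraries were used. Values deposited by the authors are raw counts for each gene and, per the file headers, a comparison of their own holding a mean of normalized counts (a signal), a log2 fold change, its standard error and a test score, and raw and adjusted p-values. Per the submitters' processing notes, the tools were TopHat, Cufflinks, DESeq and bcl2fastq 1.8.4 and the build mm9, with no roles stated. Counter, annotation, strand and handling of multiply mapped reads: not given in the sources used here. Single files and the joint table held the same counts (0 of them differing). Groups and replicate numbers came from the sample titles.

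Counts were fitted with edgeR 4.0.16 in R 4.3.3: filterByExpr (minimum count 10, minimum total 15; 12257 genes), TMM, robust quasi-likelihood F test without covariates, Benjamini-Hochberg over all tested genes, threshold 0.05. CPM values use TMM factors; standard errors come from the F statistic. Both fits were tested on simulated counts, where the share of false calls was above the threshold in both. Within groups, no 2 libraries were alike within sampling noise (chi-square of 28.1 to 137 for each degree of freedom).

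The members and lists were chosen with earlier results of these data known. Of 173 list entries, 2 were matched by another symbol in RefSeq. Genes named were, in each class, up to 4 members of highest mean CPM and up to 2 of lowest p, any member past the threshold, up to 3 of lowest p in each of 5 lists, Slbp and Npat; other members were named after their values were seen. Alternatives were DESeq2 size factors, TMM without the 16 crystallin genes, no filter, a filter of 1 CPM in 3 libraries, DESeq2 1.42.0, the replicate number as a block, the S phase level as covariate and leaving out each library. The slope was added after seeing the data.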

Additional observations from a re-analysis of the deposited data

How the results depend on the processing

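The count of called clustered histone members was 0 under every alternative run except without mutant library 2, where it was 1 (Hist2h3c1); over the leave-out fits it ranged from 0 to 1. Calls over all genes, 272, became 821 with DESeq2 and 122 with the replicate block, and ranged from 91 to 479 without single libraries. The replicate numbers did not pair the libraries: same-numbered libraries correlated at -0.284, -0.147 and 0.219 in their deviations. With the replicate block, calls among histone chaperones and among S phase genes were 0 and 0; with DESeq2 they were 5 and 11, with no filter S phase calls were 2, and without single libraries they ranged from 0 to 2 and from 0 to 8. The log2 fold change of Hist3h2ba was -0.0018 with DESeq2 size factors, -0.0018 with TMM without crystallin genes, -0.00017 with DESeq2 and -0.12 with the replicate block. Leaving out single libraries also turned signs: the ranges were -0.53 to 0.27 for Hist3h2ba, -0.35 to 0.12 for Hist1h1c, -0.15 to 0.75 for Hist1h1e, -0.057 to 0.78 for Hist1h1b, -0.26 to 1.33 for Hist1h1d, -0.60 to 0.0901 for Hist3h2a, -0.0801 to 0.91 for Hist1h2ae, -0.61 to 0.24 for Hist1h2ac and -0.61 to 0.0281 for Hist1h2bc. The H2A ratio was 0.39 without its highest member, and the H3 ratio ranged from -1.42 to -0.74. Members called by slope on the S phase level ranged from 2 to 5 without single libraries. The cause of these changes was not tested. The 48 members not tested had at most 47 counts each over the 6 libraries.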
